A study of Mus musculus with 143 samples.

Results

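The areas of hippocampus and cortex marked by nuclear stain alone were compared in brain sections of aged mice. Of the 143 segments of the series, 20 had a title that names the hippocampus or the cortex and the SYTO83 mask, 15 of them in hippocampus and 5 in cortex. The mice were 5 female C57BL/6 animals, 28 months old, and the assay was the Whole Transcriptome Atlas for mouse of the GeoMx platform, in which probes hybridised to a section carry sequence tags that light releases from a masked area for sequencing. Per the labels, the hemispheres were fixed in 4% paraformaldehyde for 24 hours, embedded in paraffin and cut at 5 µm. All groups used here share this strain, sex, age and fixation, and the labels name no treatment and no transgene. The hippocampus segments came from mice N101 (4 segments), N108 (2), N110 (6), N111 (2) and N112 (1), and the cortex segments from N101 (2), N108 (1) and N111 (2). How areas were placed within a region is not given in the sources used here.

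The hippocampus packs its principal neurons, the pyramidal cells of Ammon's horn and the granule cells of the dentate gyrus, into dense bands. The cerebral cortex spreads its excitatory neurons over several layers beside scattered interneurons, and both regions also hold astrocytes, oligodendrocytes, microglia and vessels. SYTO83 is a dye that binds nucleic acids and marks the nuclei of every cell type, so an area masked by it collects tags from mixed cells. Whether the SYTO83-only area leaves out area positive for IBA1 or Galectin-3 is not given in the sources used here, which bears on every comparison of the masks. The fimbria, the fibre tract at the edge of the hippocampus, was masked in the same way and stands here only as a further region in the fits (18 segments, all 5 mice).

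The deposited files name each probe by a code and pair none of the 20175 codes with a gene. The regional labels could therefore not be checked against neuronal or glial markers, negative probes could not be recognised, and no gene or pathway is named below. A segment was used with at least 1000 counts and a sequencing saturation of at least 50%, which 14 of the 15 hippocampus segments and all 5 cortex segments met. The segment left out, from N110, had 3427 counts at 35.8% saturation. Segments of a mouse and region were then summed, so that the mouse was the replicate, with 5 hippocampus and 3 cortex sums. N101, N108 and N111 had both regions. In such mixed tissue, fewer cells of a type and less RNA per cell cannot be told apart.

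Hippocampus segments tended to be shallower than cortex segments, with 3426 to 46610 counts against 22623 to 53699. The hippocampus sums held 60388 counts in N101, 16227 in N108, 115768 in N110, 70908 in N111 and 15687 in N112. The cortex sums held 88489 counts in N101, 35835 in N108 and 65923 in N111. The number of counts per probe thus ran from 0.778 to 5.74 in hippocampus and from 1.78 to 4.39 in cortex. Between 1.55% and 94.1% of the raw reads of a hippocampus segment matched a probe tag (the aligned share), and between 47.3% and 88.6% of those of a cortex segment. By the plate letter in the library names, all cortex segments lay on plate A, as did the hippocampus of N101 and N108, whereas the hippocampus of N110, N111 and N112 lay on plate B. Region and plate therefore differed together in N111, and within plate A only N101 and N108 had both regions.

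Most counts were spread almost evenly over the probe set in both regions. After each sum was thinned to 15687 counts, a count was seen for 52.0 ± 0.97% of probes in hippocampus (SD, n = 5 mice) and 51.5 ± 0.62% in cortex (SD, n = 3 mice), where a fully even spread would give 54.0%. Within the 3 mice that had both regions the share was 0.69 ± 1.06 percentage points higher in hippocampus (SD), in 2 of 3 mice, and it was 0.14 without N111 and 1.19 without N108. The 100 probes most abundant over the nuclear-stained sums held 3.16 ± 1.01% of hippocampus counts, 3.52 ± 0.43% of cortex counts and 4.55 ± 1.14% of fimbria counts, against 0.496% under an even spread. This share was lower in hippocampus than in cortex by 0.82 ± 0.81 percentage points (SD) in 2 of 3 mice, and the groups overlapped. The difference was -0.47 points without N101 and -1.26 without N108. With the 100 probes chosen in fimbria sums instead, it was -0.87 ± 0.71 points (SD), lower in 3 of 3 mice. The aligned share averaged 52.3 ± 30.0% in hippocampus and 65.2 ± 12.2% in cortex sums, and saturation 99.5 ± 0.043% in hippocampus and 99.4 ± 0.11% in cortex. Within the 3 mice with both regions the aligned share was 5.14 ± 16.1 points higher in hippocampus (SD), in 2 of 3 mice, with 12.1 without N101 and -3.68 without N111. Saturation was 0.10 ± 0.13 points higher (SD), in 2 of 3 mice, with 0.057 without N101 and 0.18 without N108. Tests of these 4 differences say nothing on whether the regions differ, since 3 mice cannot give a p below 0.25 (two-sided exact permutation by sign flips within 3 mice, p = 0.5 for the share of probes with a count, the share of the 100 probes and saturation, p = 0.75 for the aligned share, adjusted p = 0.667 to 0.75).

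Segments of the same region and mouse were not alike in how much of their counts the abundant probes held. In N110 the 100 probes held 1.26% of the HIP32 segment (exact 95% interval 1.15 to 1.38) and 4.31% of HIP42 (4.05 to 4.58). In N111 they held 2.21% of HIP31 (2.07 to 2.34) and 4.60% of HIP32 (4.34 to 4.87). In N101 all 4 hippocampus segments were low, at 1.26% to 2.54%. The cortex segments lay between 2.53% and 4.60%, over the upper part of the hippocampus range, and intervals here cover counting error only. In N101, N110 and N111 the hippocampus segments of a mouse thus lay further apart than the means of the regions did. So did the 2 cortex segments of N101 (2.53% and 3.78%) and of N111 (4.60% and 3.71%).

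**Figure D1:**
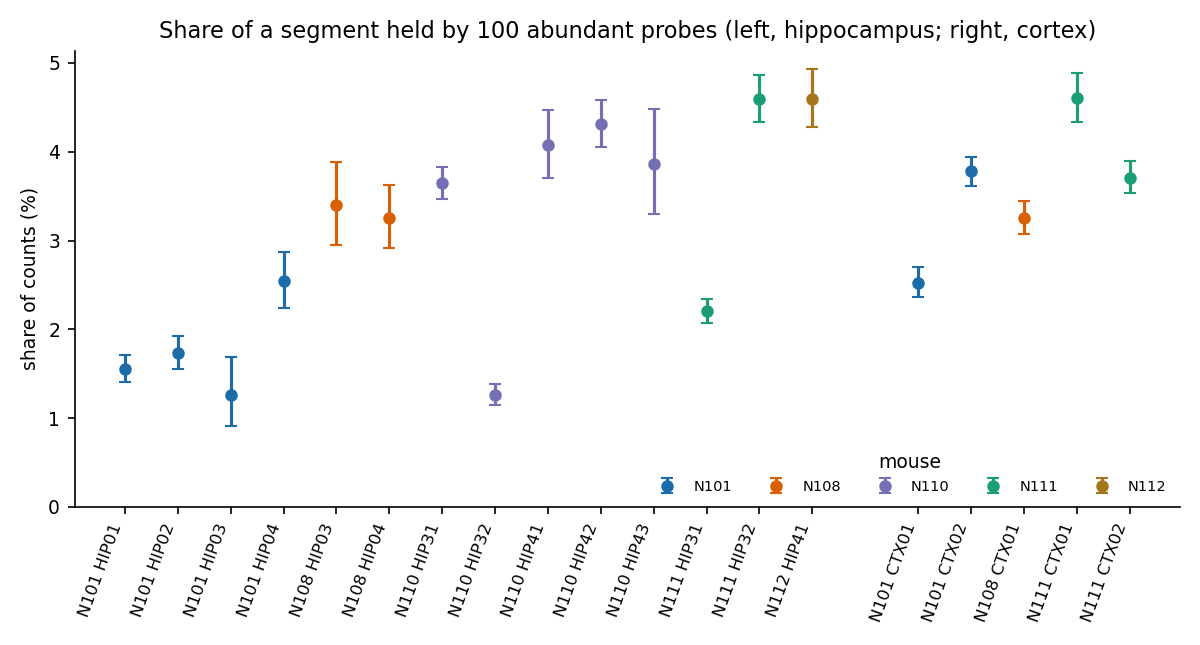
Share of each segment's counts (percent, vertical axis) held by the 100 probes most abundant over all nuclear-stained sums, for 14 hippocampus segments on the left and 5 cortex segments on the right, coloured by mouse, with exact 95% counting intervals. Hippocampus segments run from 1.26% to 4.60% and cortex segments from 2.53% to 4.60%.

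Correlations between segments were low in both regions, at a depth where counting noise alone keeps them low. At 15000 counts a segment, the correlation of square-root counts over all probes ran from 0.031 to 0.146 over all pairs of the 8 hippocampus and 5 cortex segments deep enough. Its median was 0.0525 between hippocampus segments of the same mouse (5 pairs) and 0.0632 between those of different mice (23 pairs). Pairs of hippocampus and cortex segments had medians of 0.0678 within a mouse (8 pairs) and 0.0869 across mice (32 pairs). Cortex pairs had medians of 0.123 within a mouse (2 pairs) and 0.108 across mice (8 pairs). By these medians, hippocampus segments were less like each other than cortex segments were, and no more like each other than like cortex. These values describe pairs that share segments and were not tested. When the pooled counts of each region were thinned to 190247, hippocampus and cortex shared 61 of their 100 most abundant probes, hippocampus and fimbria 72, and cortex and fimbria 69.

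The comparison of hippocampus with cortex asked which probes differ between these regions under the nuclear mask. Only 470 of the 20175 probes had enough counts to be tested, with a median of 29 counts per probe in all hippocampus sums together and 25 in cortex. The fimbria sums counted towards this minimum, and with only hippocampus and cortex sums 168 probes were tested, RTS0076921 (described below) not among them. edgeR's quasi-likelihood test with the mouse as a block called 2 of them at an adjusted p under 0.05 (0.426% of probes tested), 1 higher in hippocampus (0.213%) and 1 lower (0.213%). At an unadjusted p under 0.05 there were 26 (5.53%), and DESeq2 called 0 of the same 470, with 19 at an unadjusted p under 0.05. After scaling with TMM factors (edgeR's correction for sample composition), the log2 differences had a median of -0.03 and ran from -1.41 to 2.11. Of them, 227 lay above 0 and 243 below. The factors were computed on these same probes, which holds the median near 0, so this balance is no finding on the regions. Scaled by total counts instead, the median was -0.41, and 59 probes had an unadjusted p under 0.05 in edgeR. With TMM scaling, the hippocampus sums all lay above the cortex sums for 8 probes (1.7%) and all below for 23 (4.89%).

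Precision was the limit for most tested probes. The median standard error of a log2 difference was 0.49, with quartiles of 0.45 and 0.55. These errors use a spread that edgeR pools largely over probes. They therefore say little of how a single probe varies between mice, and intervals built on them may be too narrow. The 95% interval of the difference stayed within 1 log2 unit on both sides of 0 for 63 probes (13.4%) and within 2 units for 429. For the other probes the interval reached past 1 log2 unit, and for RTS0076921 it lay wholly beyond, at 1.26 to 2.95. Apart from that probe, these data did not settle whether a difference of that size was present.

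The most abundant tested probes show how far the regions could be told apart where counts were highest. The first had 12.6 to 49.7 counts per 10000 over the 5 hippocampus sums and 27.1 to 29.0 over the 3 cortex sums, with a difference of 0.06 log2 units (SE 0.31). The second had 8.61 to 50.4 in hippocampus and 19.7 to 24.0 in cortex, with a difference of -0.06 (SE 0.31). For both, the hippocampus sums spread widely around the cortex sums. Of the 10 most abundant probes, all 10 had overlapping groups and 0 were called, with differences from -0.81 to 0.26 log2 units, 8 of them below 0, and edgeR adjusted p of at least 0.762. The largest of these falls averaged 3.37 ± 0.64 per 10000 in hippocampus (SD, n = 5) and 7.20 ± 2.94 in cortex (SD, n = 3). Of the 10, 5 had a lower unscaled share in hippocampus in each of the 3 mice, and 3 did after TMM scaling. Over all 470 tested probes, 135 (28.7%) had a lower unscaled share in each of the 3 mice and 24 a higher one, and after TMM scaling these were 82 (17.4%) and 43. The tested probes together held 1.69 ± 1.36 percentage points less of the counts in hippocampus than in cortex (SD), lower in 3 of 3 mice. These probes were chosen by their counts in the same sums and in the fimbria sums, where they held most, 9.60 ± 1.78% (SD, n = 5). The part of that choice in this share, and in the numbers of probes lower or higher in each mouse, was not tested.

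**Figure D2:**
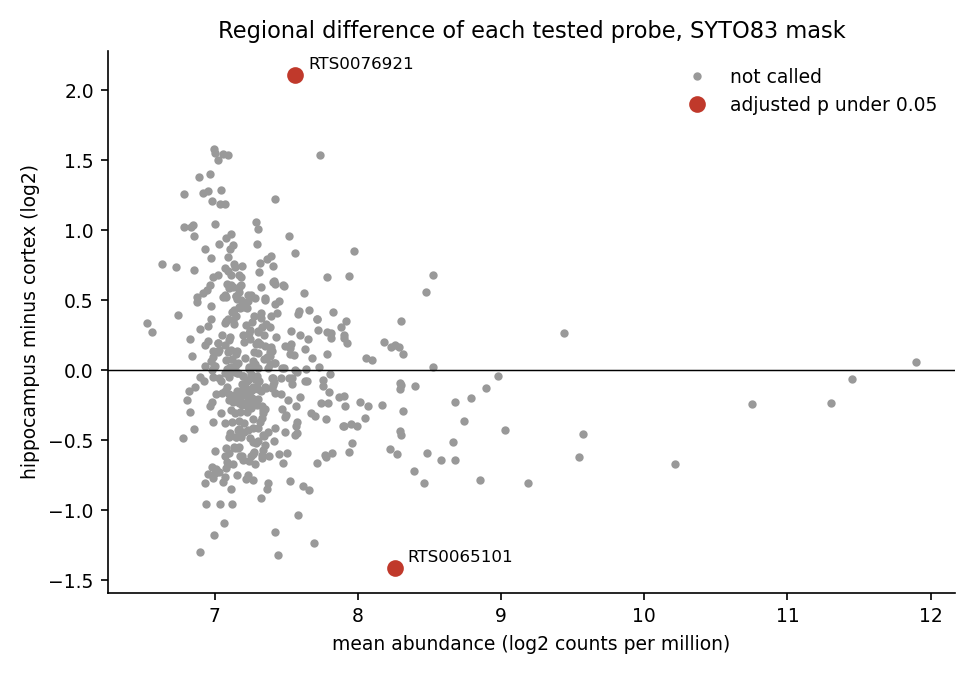
Difference between hippocampus and cortex (log2, vertical axis, above 0 when higher in hippocampus) of the 470 tested probes against their mean abundance (log2 CPM, counts scaled to a common library total, horizontal axis), with the 2 called probes in red. The differences narrow as abundance grows, and the called probes lie at 2.11 and -1.41.

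The probe called higher in hippocampus was RTS0076921. Its level was 8.94 counts per 10000 in N101 (54 counts), 0.616 in N108 (1 count), 0.95 in N110 (11 counts), 1.41 in N111 (10 counts) and 2.55 in N112 (4 counts) in hippocampus. In cortex it was 1.24 in N101 (11 counts), 0.558 in N108 (2 counts) and 1.06 in N111 (7 counts). N101 stood far above the other mice in hippocampus, and the other hippocampus sums overlapped the cortex sums. The difference was 2.11 log2 units (SE 0.43, 95% interval 1.26 to 2.95, edgeR adjusted p = 5.41e-04), a 4.31-fold higher level. By unscaled shares it was higher in 3 of 3 mice, and by TMM-scaled values in 2 of 3, since N108 had only 1 count in hippocampus and 2 in cortex. The means were 2.89 ± 3.46 in hippocampus (SD, n = 5), 0.954 ± 0.355 in cortex (SD, n = 3) and 0.876 ± 0.705 in fimbria (SD, n = 5).

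That difference rested on a single segment. The HIP02 segment of N101 held 51 of the 80 hippocampus counts of RTS0076921, at 26.1 per 10000, whereas no other hippocampus segment exceeded 2.91. Without it the N101 hippocampus sum had 3 of 40826 counts (0.735 per 10000), below the N101 cortex sum, and the difference was 0.14 log2 units (SE 0.64, edgeR adjusted p = 0.989). Without N101 it was 0.51 (SE 0.80, edgeR adjusted p = 0.99), and DESeq2 gave 1.70 (SE 0.71, adjusted p = 0.993). Without the CTX02 segment of N101 the call was also lost, at 1.71 log2 units (SE 0.48, edgeR adjusted p = 0.148). Under the IBA1 mask, which marks microglia, the same probe was at 0.535 ± 0.125 per 10000 in hippocampus (SD, n = 5) and 0.687 ± 0.300 in cortex (SD, n = 4).

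The probe called lower in hippocampus was RTS0065101. Its level was 1.82 counts per 10000 in N101 (11 counts), 2.47 in N108 (4 counts), 1.38 in N110 (16 counts), 0.846 in N111 (6 counts) and 1.27 in N112 (2 counts) in hippocampus. In cortex it was 3.84 in N101 (34 counts), 3.63 in N108 (13 counts) and 6.83 in N111 (45 counts). The hippocampus sums all lay below the cortex sums. The difference was -1.41 log2 units (SE 0.38, 95% interval -2.15 to -0.68, edgeR adjusted p = 0.0409), a level 2.67-fold lower in hippocampus, in 3 of 3 mice with and without TMM scaling. The means were 1.56 ± 0.61 in hippocampus (SD, n = 5), 4.77 ± 1.79 in cortex (SD, n = 3) and 2.80 ± 0.69 in fimbria (SD, n = 5), so the fimbria lay between the regions, and neither its difference from hippocampus (0.44 log2 units, edgeR adjusted p = 0.908) nor that from cortex (-0.97, edgeR adjusted p = 0.372) passed the test.

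No single segment held most counts of RTS0065101 in hippocampus, where 10 of 14 segments had a count and the largest share was 10 of 39 counts. In cortex all 5 segments had counts, and the CTX02 segment of N101 held 28 of 92. The CTX01 segment of the same mouse was at 1.72 per 10000, within the range of the hippocampus sums, whereas the other 4 cortex segments were at 3.63 to 8.40. Single segments of the regions overlapped, since HIP03 of N108 was at 6.56 per 10000 on 4 counts. The direction was kept in all 15 other settings that tested the probe and with each mouse or segment left out, but the call was not. With only hippocampus and cortex sums in the fit, the difference was -1.12 log2 units (SE 0.48, edgeR adjusted p = 0.561). Leaving out CTX02 of N101 gave -1.29 log2 units (SE 0.41, edgeR adjusted p = 0.300), and leaving out N111 gave -0.89 (SE 0.43, not called). DESeq2 gave -1.42 (SE 0.46, adjusted p = 0.867). With plate added to the block the difference was -0.96 (SE 0.37, edgeR adjusted p = 0.552), and on plate A alone it was -0.91 (SE 0.50, edgeR adjusted p = 0.666). With the aligned share as a covariate it was -1.39 (SE 0.38, edgeR adjusted p = 0.0643), and with only segments of at least 75% aligned reads -0.67 (SE 0.53, edgeR adjusted p = 0.654).

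**Figure D3:**
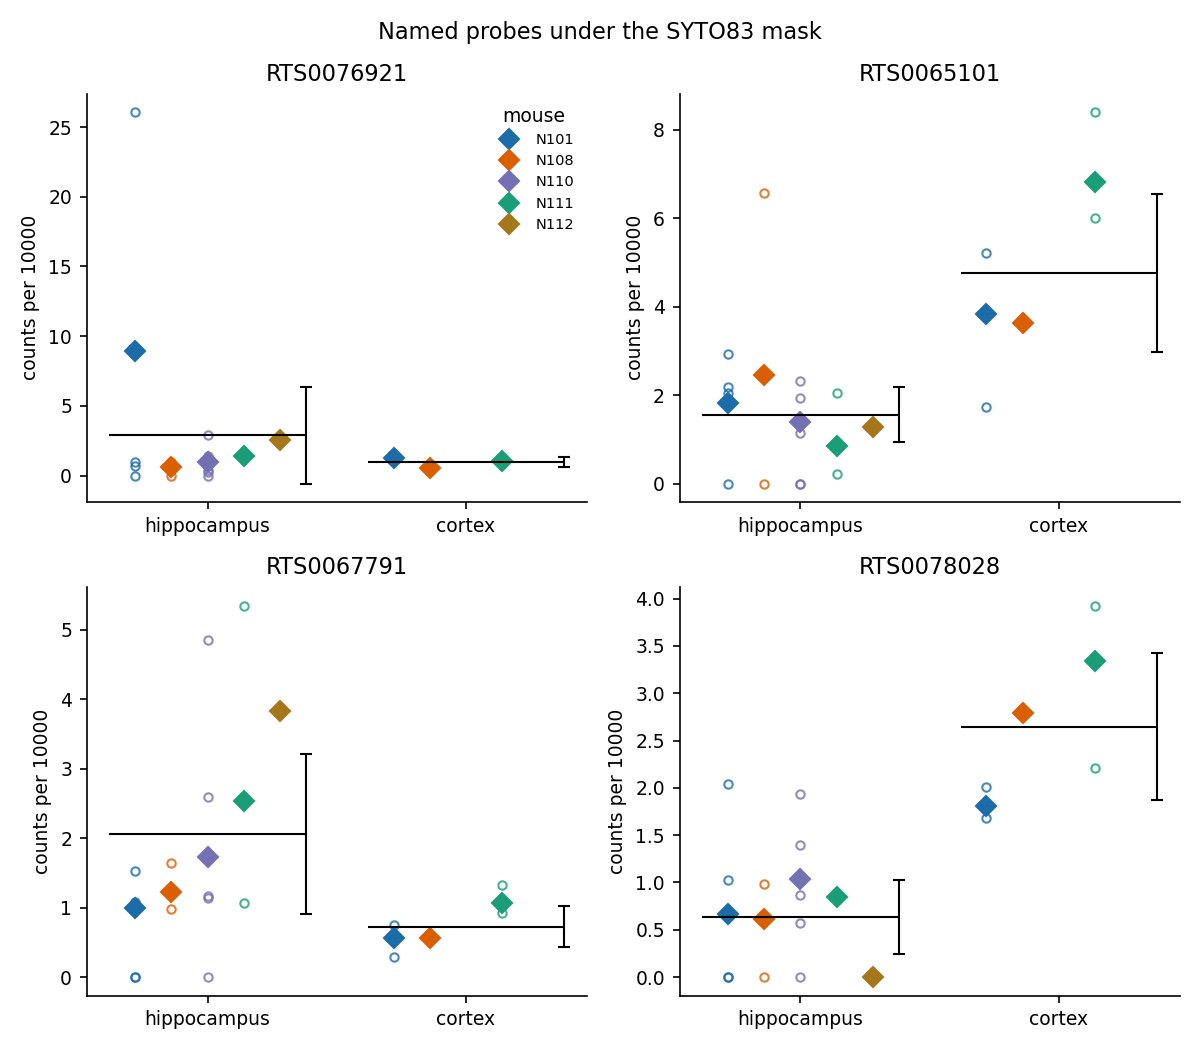
Counts per 10000 (vertical axis) of 4 probes in hippocampus (left in each panel) and cortex (right), with filled diamonds for the sum of each mouse, open circles for its segments, and a line with a bar for the mean and SD over mice. RTS0076921 stands high in a single N101 segment at 26.1, whereas the RTS0065101 sums lie at 0.846 to 2.47 in hippocampus and 3.63 to 6.83 in cortex.

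Another rise, chosen after its values were seen, did not pass the test. RTS0067791 had 0.99 counts per 10000 in N101, 1.23 in N108, 1.73 in N110, 2.54 in N111 and 3.82 in N112 in hippocampus. In cortex it had 0.565 in N101, 0.558 in N108 and 1.06 in N111. The lowest hippocampus sum lay just under the highest cortex sum, and each mouse with both regions was higher in hippocampus. In N108 this rested on 2 counts in each region. The difference was 1.54 log2 units (SE 0.49, edgeR adjusted p = 0.279), with means of 2.06 ± 1.15 in hippocampus (SD, n = 5) and 0.728 ± 0.289 in cortex (SD, n = 3). The fimbria was at 2.33 ± 0.97 (SD, n = 5). The hippocampus sums of N110, N111 and N112, the highest for this probe, lay on plate B and all cortex sums on plate A. With plate added to the block the difference was 0.98 (SE 0.53, edgeR adjusted p = 0.745). On plate A alone it was 0.63 (SE 0.80, edgeR adjusted p = 0.902).

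RTS0078028 was named because it was the 1 probe called between the masks, and its regional difference did not pass the test under SYTO83. In hippocampus it had 0.662 counts per 10000 in N101 (4 counts), 0.616 in N108 (1 count), 1.04 in N110 (12 counts) and 0.846 in N111 (6 counts). In N112 it had 0 of 15687 counts, which allows up to 1.91. In cortex it had 1.81 in N101, 2.79 in N108 and 3.34 in N111. These groups did not overlap, although the limit for N112 lies above the lowest cortex sum and the hippocampus values rest on few counts. The difference was -1.23 log2 units (SE 0.45, edgeR adjusted p = 0.536), lower in hippocampus in 3 of 3 mice.

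**Figure D4:**
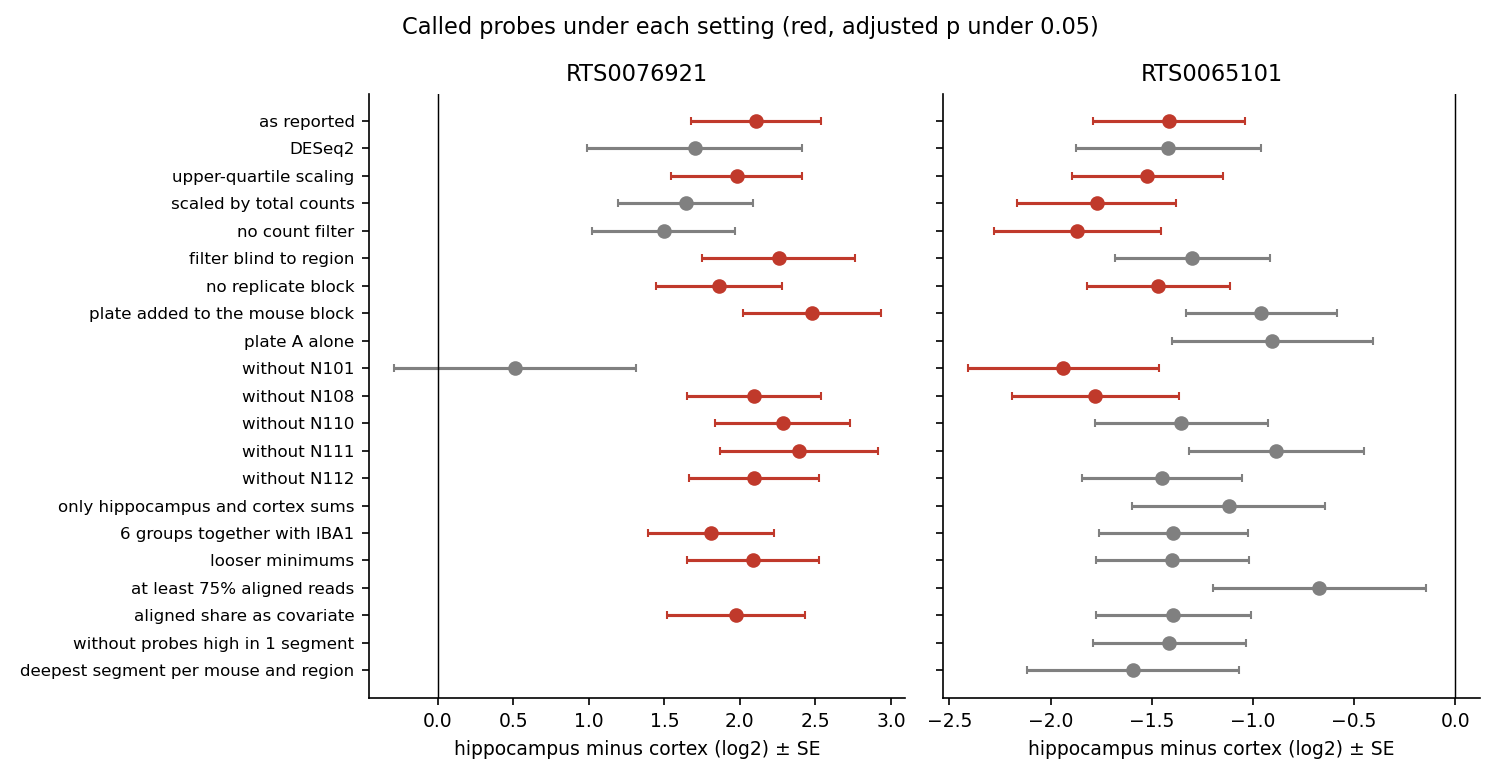
Difference between hippocampus and cortex (log2, horizontal axis, with SE bars) of the 2 called probes under each setting that tested the probe, single segments left out not shown, in red where the adjusted p was under 0.05. RTS0076921 drops to 0.51 without N101, and RTS0065101 stays below 0 throughout, between -1.94 and -0.67.

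The same regional comparison was made under the IBA1 mask to ask whether microglial area shows it too, with 19 hippocampus and 6 cortex segments before filtering. There, only 0.55% of all probes could be tested, over 5 hippocampus and 4 cortex sums, and edgeR called 0 of them (0%), with 4 at an unadjusted p under 0.05 (3.6%) and 0 calls by DESeq2. RTS0065101 had a difference of -0.25 log2 units under IBA1 (SE 0.36, edgeR adjusted p = 0.848). In IBA1 area it averaged 1.44 ± 1.09 per 10000 in hippocampus (SD, n = 5) and 1.94 ± 0.80 in cortex (SD, n = 4). Its difference under SYTO83 minus that under IBA1 was -1.21 log2 units (SE 0.49, edgeR adjusted p = 0.690), so the masks were not shown to differ for it. Of the 98 probes tested under both masks, 42 had the same sign, and the correlation of their differences across probes was 0.11 (Pearson) and 0.10 (Spearman), a description over probes that are not independent.

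The difference between the masks was called for 1 of the 866 probes tested jointly (0.115%), with 46 at an unadjusted p under 0.05 (5.31%) and 0 calls by DESeq2. It was RTS0078028, whose regional difference was lower under SYTO83 than under IBA1 (difference of -2.81 log2 units, SYTO83 minus IBA1, SE 0.63, edgeR adjusted p = 0.00678). Under IBA1 it had 1.69 counts per 10000 in N101, 0.388 in N108, 1.09 in N110, 1.0 in N111 and 0.852 in N112 in hippocampus. In IBA1 cortex it had 0.157 in N101 and 1.15 in N111, with 0 of 28194 counts in N108 (up to 1.06) and 0 of 59612 in N110 (up to 0.503). The IBA1 groups overlapped. In the joint fit the regional difference was -1.34 under SYTO83 (SE 0.42, edgeR adjusted p = 0.319) and 1.47 under IBA1 (SE 0.48, edgeR adjusted p = 0.760), and neither passed the test. The IBA1 cortex level rested on 9 of 220776 counts. Without N101, N108 or N110 the call was lost.

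The hippocampus and cortex were also set beside the fimbria under the nuclear mask, in comparisons that share the sums described above. Fimbria minus hippocampus was called for 0 probes higher and 1 lower (0.213%), with 25 at an unadjusted p under 0.05 (5.32%). The lower probe was again RTS0076921, at -2.32 log2 units (edgeR adjusted p = 5.88e-08), and without the HIP02 segment of N101 it was -1.0 (SE 0.50, edgeR adjusted p = 0.784) and no probe was called, 0 of 491, with 29 at an unadjusted p under 0.05. Fimbria minus cortex was called for 0 probes in either direction, with 20 at an unadjusted p under 0.05 (4.26%). The fimbria difference from cortex was -0.22 log2 units for RTS0076921 (edgeR adjusted p = 0.954) and 1.5 for RTS0067791 (edgeR adjusted p = 0.212).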

How the data were processed

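Per the file headers, the authors' GeoMx NGS Pipeline 2.3.3.10 trimmed, stitched and aligned reads to probe tags and collapsed duplicates by molecular identifier. The deposited values are raw counts per probe and segment. The submitters' processing notes name GRCm39. No pair of segments had identical counts. The reference tables of gene names matched 0 of the 20175 codes, so gene and marker lists were not used.

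Sums of at least 5000 counts per mouse and region entered edgeR 4.0.16 (R 4.3.3, quasi-likelihood F test, TMM, filterByExpr at a minimum count of 10, mouse as block), with Benjamini-Hochberg adjustment over all probes tested. The fit held 13 SYTO83 sums (5 hippocampus, 3 cortex, 5 fimbria), its common dispersion was 0.0397, and TMM factors ran from 0.655 to 1.34. Further fits used IBA1 sums, and 27 sums of both masks. The pairing comes from regions of the same animal. Deviations of same-mouse sums from the region means correlated at 0.012 (N101), 0.033 (N108) and 0.040 (N111).

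Named probes were to be the called probes with above-median abundance and the same direction in every mouse, up to 2 each way. RTS0076921 (by unscaled shares only) and RTS0065101 met this. RTS0067791 was chosen after its values were seen. RTS0078028, also outside the rule, was the probe called between the masks. The members, lists and settings were chosen with earlier results of these data known. Single values used exact sign-flip permutation tests, 4 in all. Intervals of the shares of counts in segments are exact (Clopper-Pearson, 95%). The 95% intervals of log2 differences are not, and were built on the edgeR standard errors. Where a sum held none of a probe, its upper limit was fixed at 3 counts, which is a setting and not an exact interval. Fits were tested on simulated data. Alternatives used DESeq2 1.42.0 and limma 3.58.1. Figures used Python 3.11.15, pandas 2.3.3 and matplotlib 3.10.9.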

Additional observations from a re-analysis of the deposited data

Results flagged for a closer look

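Within the hippocampus sums, N101 stood apart from the other mice for RTS0076921, at 8.94 counts per 10000, where the gap to the next mouse exceeded what Dixon's criterion allows for 5 values. In all, 11 groups of values were examined in this way, and chance marks about 1 in 20 where a group is not chosen by its values. RTS0076921 was named for a rise that rested on this N101 value, so the criterion describes the gap and does not test it. The HIP02 segment of N101, the source of most of these counts, had 94.1% of reads aligned and 19562 counts in all. The part of depth or alignment in this value was not tested.

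For RTS0078028 the regional difference was called as different between the masks. It was lower under SYTO83 than under IBA1, with a difference of -2.81 log2 units (SYTO83 minus IBA1, edgeR adjusted p = 0.00678, an interaction term over 866 probes). The probe was lower in hippocampus in 3 of 3 mice under SYTO83. DESeq2 did not call it, and neither did edgeR without N101, N108 or N110. Its IBA1 cortex level rested on 9 counts, 8 of them in N111, where the probe was at 1.0 per 10000 in hippocampus and 1.15 in cortex.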

How the results depend on the processing

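The 2 calls between hippocampus and cortex sums rest on few counts and 3 mice, and most settings moved them. The count stayed at 2, and both were the same probes, with no replicate block, so the pairing by mouse changed no call, although 43 instead of 26 probes then had an unadjusted p under 0.05. It was also 2 with upper-quartile scaling, and 3 without the count filter, of which 1 was shared. The count was 1 when scaled by total counts, and that probe was RTS0065101. With a filter blind to region, with plate added to the block or in a joint fit with IBA1 it was 1, RTS0076921. The same held with looser minimums and with the aligned share as a covariate. The rise of RTS0076921 rested on the HIP02 segment of N101, as given above. With segments as observations (limma voom) the count was 1, a different probe among 43 tested. It was 0 with DESeq2, on plate A alone, with only hippocampus and cortex sums (168 probes tested) and with at least 75% aligned reads (51 probes tested). It was also 0 without the 17 probes high in a single segment and with only the deepest segment per mouse and region. Of these settings, only DESeq2 tested RTS0076921. The stricter minimums removed no sum and changed no value, so they are not a check. Leaving out a mouse gave 1 to 2 calls and leaving out a segment, a setting added after the data were seen, 0 to 2, with 0 without HIP02 or CTX02 of N101. Total-count scaling moved the median difference to -0.41 log2 units, against -0.03 with TMM. RTS0065101 stayed negative in all 15 other settings that tested it (called in 4, adjusted p 0.00328 to 0.867), with each of 5 mice left out (called in 2, adjusted p from 0.0130 upwards) and with each of 19 segments left out (called in 6, adjusted p 0.00824 to 0.300). RTS0076921 stayed positive in the 10 other settings that tested it (called in 7, adjusted p 2.96e-05 to 0.999). The IBA1 comparison gave 0 calls throughout. The single call of a difference between masks became 0 with DESeq2, and 0 to 2 without a mouse. The difference in probes with a count turned to -9.45 percentage points without thinning, where depth differs between the sums. The cause of the other changes was not tested.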
